A study of Sus scrofa with 27 samples.

Results

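The libraries described here are those of lung tissue before any perfusion, 9 of the 27 libraries of a study of ex vivo lung perfusion (EVLP) in pigs. They were chosen by the time point in their labels, as the biopsies of 0h, and comprise 4 pigs of the Pediatric Dialysis (PD) group (pigs 2, 3, 4 and 5) and 5 pigs of the Gold Standard (GS) group (pigs 9, 17, 44, 55 and 77). All 9 were Large-White pigs whose lungs were taken by a non-heart-beating donor protocol and kept in cold ischemia, and the 0h biopsy preceded the circuit. The GS lungs were to be perfused with a solution renewed at intervals, and the PD lungs with a solution dialysed across a pediatric membrane. Neither had begun at 0h, and no drug of the circuit (methylprednisolone, cefuroxime, heparin) had been given through it. The pigs are separate animals, 1 library each at this time, so the p-values measure the spread between these pigs. The methods name 2 ways of taking RNA from a biopsy, frozen sections with a PicoPure kit or RNAlater tissue with Trizol and a NucleoSpin kit, and do not say which library used which. Per the paper, the PD lungs had also served in an earlier study by the same authors, and the GS lungs had not. Sex and age were not given in the sources used here.

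The comparison of the 0h libraries asks which genes already differed between the lungs that later formed the 2 arms. Lung tissue is a mixture of gas-exchange epithelium (flat alveolar type 1 cells and surfactant-making alveolar type 2 cells), a dense capillary endothelium, airway epithelium, stroma and resident macrophages. Immediate early genes, such as those of the FOS, JUN and EGR families, are transcribed within minutes of a stimulus and their transcripts decay fast, so they are known to change with handling and ischemia. Transcripts differ in length and in whether they carry a poly(A) tail, and the recovery of short or tail-less RNA is known to vary with extraction and library making. In bulk tissue, fewer cells of a type and less RNA per cell cannot be told apart.

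Several of the RNAs that separated the groups most are short structured RNAs. As single examples, 5 entries are printed here as RefSeq's Sscrofa11.1 genome has them, 5′ to 3′ in DNA letters. The Y RNAs bind the Ro60 protein, U4 is a core RNA of the spliceosome, SNORD81 is a C/D box small nucleolar RNA (snoRNA), a class that guides methylation of RNA, and SNORA51 is an H/ACA snoRNA, a class that guides pseudouridylation. Capitals mark the C box (TGATGA) and the D box (CTGA) of SNORD81 and the ACA near the 3′ end of SNORA51, found by script. The entries lie on chr9:109327466-109327546 (minus strand), chr9:109287974-109288086 (plus), chr14:40286512-40286652 (minus), chr9:116145312-116145390 (minus) and chr17:32963287-32963417 (minus), in this order.
Y_RNA (ENSSSCG00000020402): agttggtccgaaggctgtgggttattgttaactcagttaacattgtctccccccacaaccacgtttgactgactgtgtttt
Y_RNA (ENSSSCG00000019375): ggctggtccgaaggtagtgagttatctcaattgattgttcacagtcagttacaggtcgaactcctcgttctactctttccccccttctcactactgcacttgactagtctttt
U4: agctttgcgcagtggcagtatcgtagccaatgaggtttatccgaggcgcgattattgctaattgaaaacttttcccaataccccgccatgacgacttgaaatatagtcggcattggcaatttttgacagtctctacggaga
SNORD81: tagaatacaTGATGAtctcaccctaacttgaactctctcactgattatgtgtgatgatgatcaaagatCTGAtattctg
SNORA51: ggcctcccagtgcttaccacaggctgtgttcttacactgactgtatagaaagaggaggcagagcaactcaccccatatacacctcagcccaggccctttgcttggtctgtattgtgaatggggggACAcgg

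The depth of the libraries went with the group. The PD libraries held 18236602 to 20414838 counts on genes and the GS libraries 26871741 to 62331425 counts, with no overlap, and the floor of 3 counts came to 0.175 to 0.195 CPM (counts scaled to the same TMM-adjusted library total) in PD and 0.044 to 0.0974 in GS. Thinned to the smallest total, 20206 to 21443 genes had a count in a PD library and 20826 to 21960 in a GS library, a mean difference of −683 genes (exact permutation p = 0.0794, two-sided, smallest possible 0.0159). Without GS pig 9 it was −880 (exact permutation p = 0.0286, the smallest possible there), and without PD pig 4 it was −442 (exact permutation p = 0.179). The main axis of the log2 CPM values held 53.7% of the variance and separated the groups. The library of PD pig 4 stood apart from the other PD libraries: its mean correlation with them was 0.896, against 0.937 to 0.946 for the other PD pigs, and its 100 most abundant genes took 43.9% of all counts against 30.0 to 32.0% in the other PD pigs and 16.5 to 22.9% in GS. For the genes named, values without pig 4 are given where they change a call. Any batch of extraction, sequencing or earlier study that went with the group cannot be told apart from it.

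**Figure D1:**
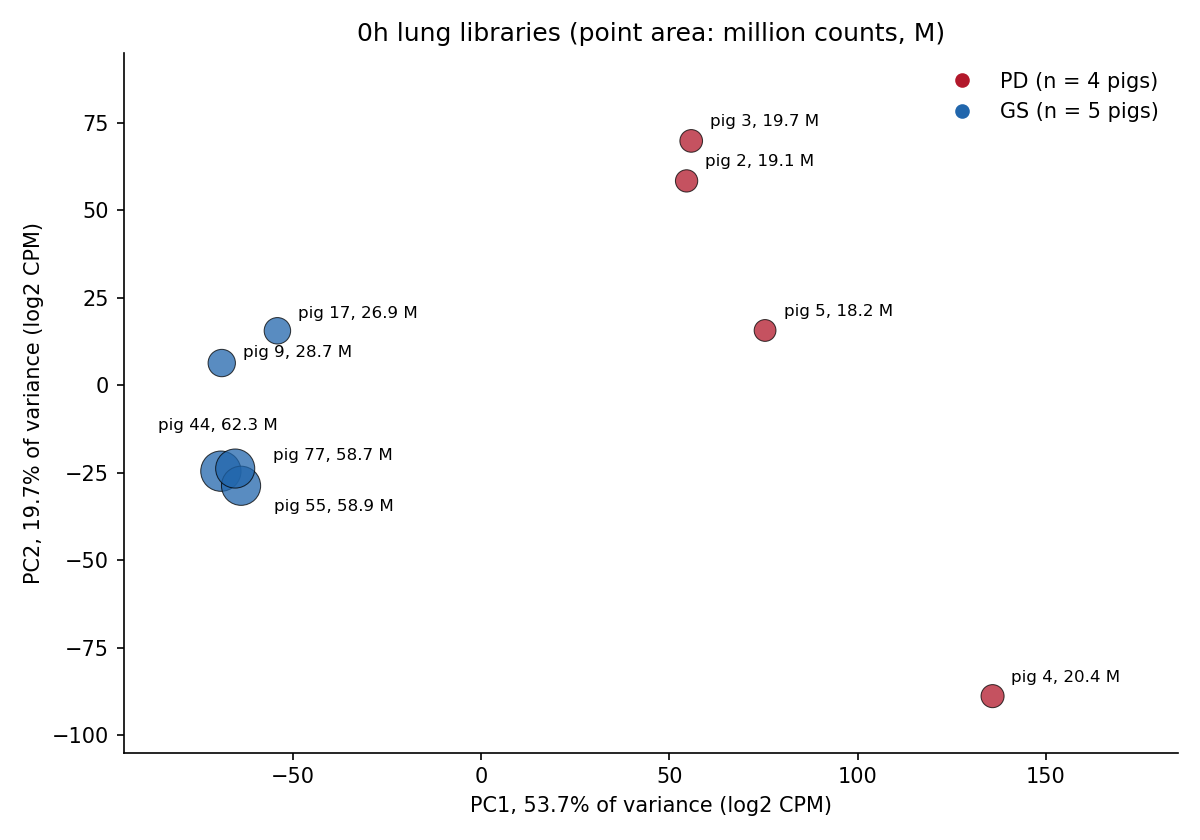
Principal components of the log2 CPM values of the 9 libraries taken before perfusion, PC1 (53.7% of variance) against PC2 (19.7%). Each point is 1 pig and its area is the library's total count. The 5 GS pigs lie together at the left, with pigs 9 and 17, the shallower ones, above the other 3, and PD pig 4 lies far from PD pigs 2, 3 and 5.

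The transcriptome of the unperfused lung was led by surfactant protein C, mitochondrial messages and short abundant cytoplasmic messages. Per exon length (CPM per kilobase of exon, RPKM), the 12 most abundant genes with a symbol over the 9 libraries were, in this order, SFTPC, ATP6, COX2, COX3, COX1, TMSB10, RPL37, ATP8, TPT1, TMSB4X, RPS12 and ND6. SFTPC, a surfactant protein of alveolar type 2 cells, had a mean of 43552 ± 22423 RPKM in PD (SD, n = 4) and 5082 ± 1224 in GS (SD, n = 5), so its place at the head of the order rests on the PD libraries. In GS the mean RPKM of ATP6, ATP8, COX1, COX2 and COX3, all encoded in the mitochondrial genome, stood above that of SFTPC. ATP6, a subunit of ATP synthase, had 14239 ± 6648 RPKM in GS and 13647 ± 5055 in PD. On the TMM scale the order of its means was the other way, with 8740 CPM in GS and 10963 in PD. TMSB10, a thymosin that binds actin monomers, had 16049 ± 2756 RPKM in PD and 3628 ± 409 in GS, and TMSB4X, its relative, had 6576 ± 1400.4 and 2744 ± 969. Of these 12, SFTPC, COX2, COX3, COX1, TMSB10, RPL37, TPT1, TMSB4X and RPS12 were called higher in PD by the test described next, and ATP6, ATP8 and ND6 were not called. Without PD pig 4 TPT1, which encodes the translationally controlled tumour protein, differed by 0.83, under the fold threshold, and it lay at −0.17 once a trend over exon length and GC content was removed. In that setting TMSB4X (0.22), COX1 (0.29), COX2 (−0.059) and COX3 (−0.24) were not called either, and ATP6 (−1.55) and ATP8 (−3.15) were called lower.

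Markers of the lung's cell types were present, as the tissue label says. All 12 matched markers of alveolar type 2 cells, all 12 of alveolar type 1 cells, all 20 of vascular endothelium, all 7 of lymphatic endothelium, all 15 of fibroblasts and pericytes and all 14 of alveolar macrophages passed the filter on low counts. AGER, the defining transcript of type 1 cells, had 823, 736, 501 and 1368 CPM in PD pigs 2, 3, 4 and 5 and 740.3, 777, 1005, 848 and 939 CPM in GS pigs 9, 17, 44, 55 and 77. The groups overlapped and the fitted difference of PD against GS was −0.0079 on the log2 scale (SE 0.27, adjusted p = 0.985). PECAM1, the endothelial adhesion molecule CD31, lay at 517 to 652 CPM in PD and 515 to 799 in GS (−0.13 ± 0.20, adjusted p = 0.624). Of tissue that a lung biopsy should lack or hold in traces, none of the 3 matched mesothelial markers passed the filter, and the 8 matched heart and skeletal muscle markers together took 0.00139 to 0.00253% of counts in GS and 0.00121 to 0.00212% in PD. LYZ, the lysozyme marker, was listed at 0 in every library.

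A gene was called when edgeR's quasi-likelihood test gave a Benjamini-Hochberg adjusted p under 0.05 and the groups differed by at least 2-fold. Differences are log2 fold changes of PD over GS, given ± SE. Of 16477 genes tested, 4792 were called (29.1%), 2504 of them higher in PD (15.2%) and 2288 lower (13.9%). At an adjusted p under 0.05 alone the number was 6687. The CPM values of the groups did not overlap in 5612 of the genes tested (34.1%) and in 4014 of those called (83.8%). Differences of at least 8-fold were called higher in 194 genes and lower in 114. Against only the 2 GS pigs nearest to PD in depth (17 and 9) the number called was 2273, and once the exon length and GC trend was removed it was 3097 of 14525 (11.0% of them higher and 10.3% lower). The median log2 fold change of all genes tested was 0.00.

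The length of a transcript went with the direction of its difference. Of the 2421 genes in the shortest of 6 bins of exon length (55 to 1711 bases), 1073 were higher in PD and 102 lower, with a median log2 fold change of 0.93. In the second bin (1712 to 2655 bases) 494 were higher and 147 lower (median 0.33), and in the third 262 and 252 (median 0.04). The balance turned from there on. Among genes of 3720 to 5124 bases 193 were higher and 348 lower (median −0.16), among those of 5125 to 7463 bases 148 and 507 (−0.32), and in the 2421 longest (7464 to 79163 bases) 103 and 622 (−0.44). Over bins of GC content the medians fell from 0.35 in the lowest (23.19 to 41.94% GC) to −0.24 and −0.19 in the highest 2. Removing both trends left medians of −0.03 to 0.09 over the length bins, a levelling that the removal brings about by design. What the trends come from was not tested. Counts after their removal are given beside the classes described, and they often differ. In that setting 11.0% of all genes were higher and 10.3% lower, the shares to set beside such counts.

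**Figure D2:**
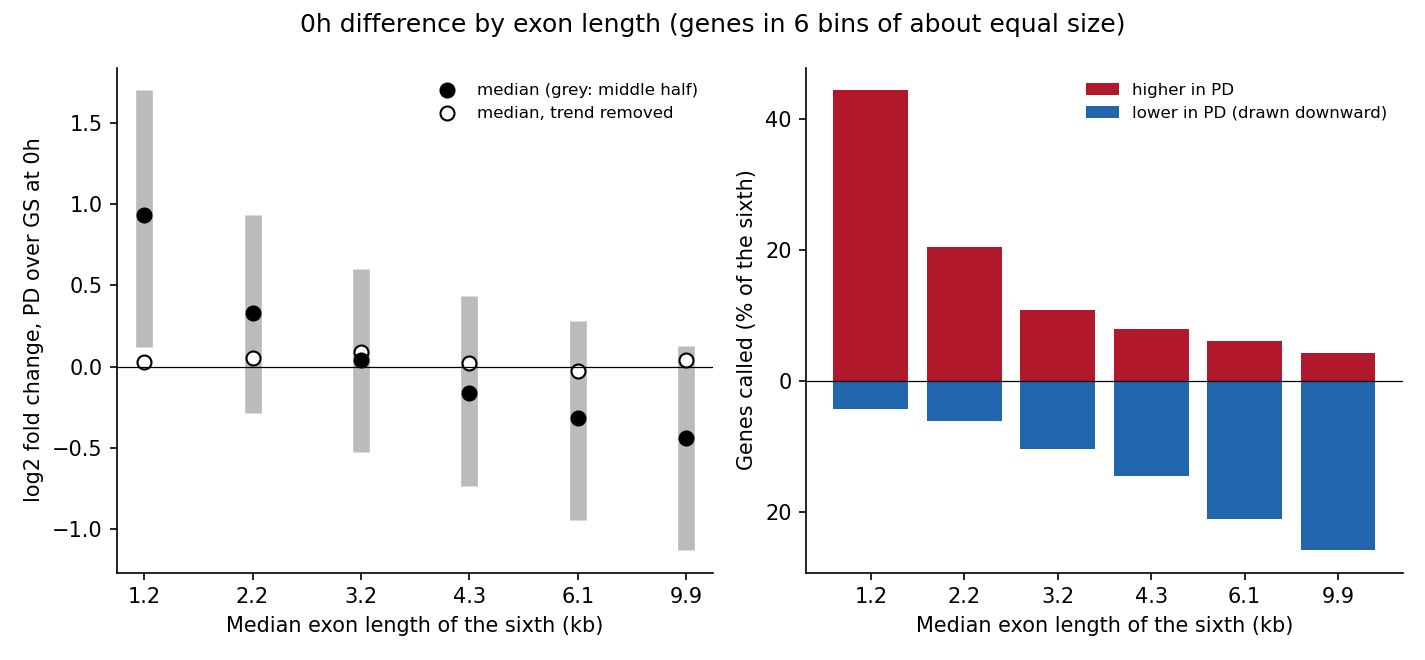
Difference between PD and GS before perfusion by exon length, for genes in 6 bins of about equal size whose median lengths (kb) label the horizontal axis. The left panel gives the log2 fold change (filled point: median, grey: lower to upper quartile, open point: median after the length and GC trend was removed), falling from 0.93 in the shortest bin to −0.44 in the longest. The right panel gives the percent of each bin called higher (drawn upward) or lower (drawn downward) in PD.

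Symbol-bearing genes whose groups did not overlap and that reached 5 CPM or more in PD were ranked by their difference. The 6 highest relative to GS were 5_8S_rRNA, a Y RNA, SCARNA10, SCARNA2, U4 and Metazoa_SRP, RNAs that lack a usual poly(A) tail. Picked by the difference itself, they give no direction for such RNAs as a class. A gene could pass the filter on low counts through the PD libraries alone. The 5.8S ribosomal RNA (5_8S_rRNA, ENSSSCG00000038753, on an unplaced scaffold), a part of the large ribosomal subunit, had 489, 486, 828 and 852 counts in PD pigs 2, 3, 4 and 5 and 0 counts in each of the 5 GS libraries. Measured against a floor of 3 counts per GS library, it was at least 627-fold higher in PD. The Y RNA ENSSSCG00000020402 had 24.4, 28.4, 297 and 43.9 CPM in the PD pigs and 0.357, 2.72, 0.665, 0.734 and 1.004 CPM in GS pigs 9, 17, 44, 55 and 77. The groups were far apart although pig 4 exceeded the other PD pigs, and the log2 fold change was 6.51 ± 0.89 (adjusted p = 0.000179), or 4.91 without pig 4. The other Y RNA, ENSSSCG00000019375, chosen after its values were seen, had 5.44, 5.796, 22.4 and 9.01 CPM in PD and at most 0.875 in GS (5.06 ± 0.77, adjusted p = 0.000353). GS pig 9 had 0 counts of it, under the floor, so its fitted value is no exact size.

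U4, the spliceosomal RNA, lay at 3.87, 5.74, 11.9 and 20.7 CPM in PD and at 0.0974, 0.815, 0.103, 0.04403 and 0.0457 CPM in GS, where pig 17 was the highest and still under every PD pig. Its log2 fold change was 5.71 ± 0.88 (adjusted p = 0.000376), or 4.43 with the length and GC trend removed. GS pigs 9, 55 and 77 had 3 counts each of U4, at the floor, so its fitted value is no exact size. SCARNA10 and SCARNA2, guide RNAs of the Cajal body where spliceosomal RNAs are modified, differed by 6.43 ± 0.76 and 5.71 ± 0.78, and by 4.88 and 4.53 with the trend removed. Without PD pig 4 SCARNA10 differed by 5.54. GS pig 9 had 0 counts of SCARNA10 and 1 of SCARNA2, under the floor, so neither fitted value is an exact size. The annotation types SCARNA10 as a snoRNA and SCARNA2 as a small Cajal body RNA. Metazoa_SRP, an RNA of the signal recognition particle that targets secreted proteins to the endoplasmic reticulum, differed by 5.33 ± 0.86, or by 3.61 without PD pig 4. It reached 5 CPM in that pig alone (19.5 CPM, against 1.09 to 2.34 in the other PD pigs). GS pig 17 had 2 counts of it, under the floor, so its fitted value is no exact size. RNaseP_nuc, the RNA of the enzyme that trims transfer RNA precursors, was chosen after its values were seen and differed by 5.29 ± 0.61. Of 21 ribosomal RNA, 9 Y RNA, 25 small Cajal body RNA, 1104 small nuclear RNA and 591 snoRNA genes in the table, 4, 2, 7, 10 and 120 passed the filter on low counts. Since such genes could pass through 1 group alone, the direction of those that passed is not counted here.

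Single snoRNAs differed in either direction. SNORD81, chosen after its values were seen, had 0.177 to 0.966 CPM in GS and 5.205 to 15.96 CPM in PD (4.06 ± 0.55, adjusted p = 0.000164). SNORA51 went the other way, with 0.665, 0.351, 0.0649 and 0.234 CPM in the PD pigs and 9.45, 1.39, 3.72, 6.03 and 5.07 CPM in the GS pigs (−3.94 ± 0.67, adjusted p = 0.000703). In PD pig 4 that was 1 count, under the floor, so the fitted value is no exact size. Of the 556 snoRNA genes placed on chromosomes, 33.1% hold both TGATGA and CTGA on their own strand as SNORD81 does, and 33.6% hold the ACA 3 bases before the 3′ end. Once the length and GC trend was removed, SNORD81 lay at 2.78 (adjusted p = 0.00194) and SNORA51 at −4.81 (adjusted p = 0.000618).

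Mitochondrial ribosomal RNA took 0.0251 to 0.0427% of counts in GS and 0.229 to 0.289% in PD. The longer of its 2 entries (ENSSSCG00000018063, chosen after its values were seen) had 2384, 2366, 2980.3 and 1964 CPM in PD and 238, 126, 176, 222 and 205 CPM in GS. The groups were wide apart, and the log2 fold change was 3.65 ± 0.25 (adjusted p = 4.1e-06), or 2.43 once the length and GC trend was removed. The other entry (ENSSSCG00000018061, likewise chosen) differed by 2.34 ± 0.26, but by 0.77 with the trend removed, where it was not called. The scaffold gene ENSSSCG00000041596, a long noncoding entry without a symbol that was chosen after its values were seen, took 1.19% of the counts of PD and 0.0221% of those of GS on average (log2 fold change 6.20 ± 0.55). It is part of the lncRNA share, which was 0.705 to 0.786% of counts in GS and 1.1 to 3.75% in PD.

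The proteins of the cytosolic ribosome were higher in PD almost throughout. Of 68 tested, 63 were called higher and 0 lower (92.6% against 15.2% of all genes), with a median log2 fold change of 2.38, and the class took 2.78 to 3.41% of counts in GS and 8.33 to 16.1% in PD. RPS27A, a small-subunit protein made as a fusion with ubiquitin, had 3681, 4812, 7682 and 3569 CPM in the PD pigs and 292, 389.9, 257, 330.4 and 312 CPM in the GS pigs. Every PD pig stood far above every GS pig (3.96 ± 0.29, adjusted p = 5.06e-06, 15.6-fold). RPL39, a very short large-subunit protein, had 576 to 1166 CPM in PD and 70.1 to 100.6 in GS (3.23 ± 0.25). RPL38 had the largest difference of the class, 4.67 ± 0.45, and was chosen after its values were seen. Among the members that were not called were RPL7A (0.21), RPL15 (0.92), RPL23A (0.48) and RPS4X (0.84), named because they are exceptions. RPL7A had 594, 619, 858 and 747 CPM in PD and 693, 441, 612, 719.5 and 578 CPM in GS, values that overlapped. Its entry spans chr1:272805844-272965636, far longer than its 1185 bases of exon, and overlaps a gene on the opposite strand. It may therefore take up reads of its neighbours.

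Ribosomal protein messages are short, and they were set beside other short genes. In the shortest length bin the 59 ribosomal protein genes had a median of 2.42 and 55 were called higher, whereas 2252 other genes of that bin, outside the ribosome, respiratory chain and proteasome lists, had a median of 0.84 with 41.3% called higher. After removal of the length and GC trend 41 of 68 were called higher and 0 lower (median 1.44), against 11.0% and 10.3% of all genes. Ribosomal protein genes have many processed pseudogenes, and how reads with several possible places were counted is not stated, so single members carry an unknown error of that kind.

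Of the nuclear-encoded subunits of the respiratory chain and ATP synthase, 53 of 62 were called higher (85.5%, against 15.2% of all genes) and 1 lower (median 1.79). COX7A2, a small subunit of cytochrome c oxidase, had 249.6, 294, 329 and 202 CPM in PD and 22.1, 29.2, 21.6, 23.5 and 22.2 CPM in GS. The GS values were nearly alike and all PD values lay far above them (3.50 ± 0.21, adjusted p = 3.21e-06). NDUFB5, an accessory subunit of complex I, had 12.2 to 17.4 CPM in GS and 124 to 167 in PD (3.30 ± 0.20). The exception was NDUFS8, an iron-sulfur subunit of complex I whose gene overlaps another on the opposite strand, with 0.644 to 2.92 CPM in PD and 3.08 to 9.95 in GS (−2.08 ± 0.50, adjusted p = 0.00555). With the length and GC trend removed, 26 of 59 were higher, against 11.0% of all genes, and 2 lower (median 0.77).

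The 13 messages encoded in the mitochondrial genome were divided. COX1, COX2 and COX3, the catalytic core of cytochrome c oxidase, were called higher (1.54 ± 0.30, 1.78 ± 0.48 and 1.35 ± 0.38). That was 23.1% of the class, against 15.2% of all genes. Of the class 0 were called lower, against 13.9% of all genes, and the median was 0.30. ND4, a core subunit of complex I chosen after its values were seen, had 4667, 4871, 1843 and 1968 CPM in PD and 8475, 1524, 6729, 5798 and 7864 CPM in GS, and was not called (−0.86 ± 0.47, adjusted p = 0.164), except without GS pig 17 (−1.15) or with the length and GC trend removed (−2.31). After the length and GC trend was removed 6 were called lower and 0 higher (median −1.33), against 10.3% and 11.0% of all genes. ATP6 turned from 0.33 to −1.55 (adjusted p = 0.0287), and COX2 and COX3 lay at −0.059 and −0.24, so the direction for this class depends on that setting.

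Of 72 mitochondrial ribosomal proteins 47 were called higher (65.3%, against 15.2% of all genes), 1 was lower and 24 were not called (median 1.31). MRPL13 had 64.4, 94.6, 117 and 78.5 CPM in PD and 8.41 to 9.67 in GS (3.28 ± 0.21), and MRPL33 had 48.5 to 73.8 and 4.99 to 10.5 CPM (3.23 ± 0.26), while MRPL49 was lower (−1.38 ± 0.30). Of 30 proteasome subunits 17 were higher (56.7%), 1 was lower and 12 were not called (median 1.17). PSMA2, of the outer rings of the core particle, had 416, 512, 367 and 371 CPM in PD and 50.9 to 82.1 in GS (2.77 ± 0.21). PSMB3, of its inner rings, differed by 3.04 ± 0.25, and PSMD11, a subunit of the regulatory lid, by −1.16 ± 0.25, or −0.95 without PD pig 4, under the fold threshold. Once the length and GC trend was removed, 16 of 70 mitochondrial ribosomal proteins and 7 of 30 proteasome subunits were higher and 2 of each lower, with medians of 0.53 and 0.42, against 11.0% of all genes higher.

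**Figure D3:**
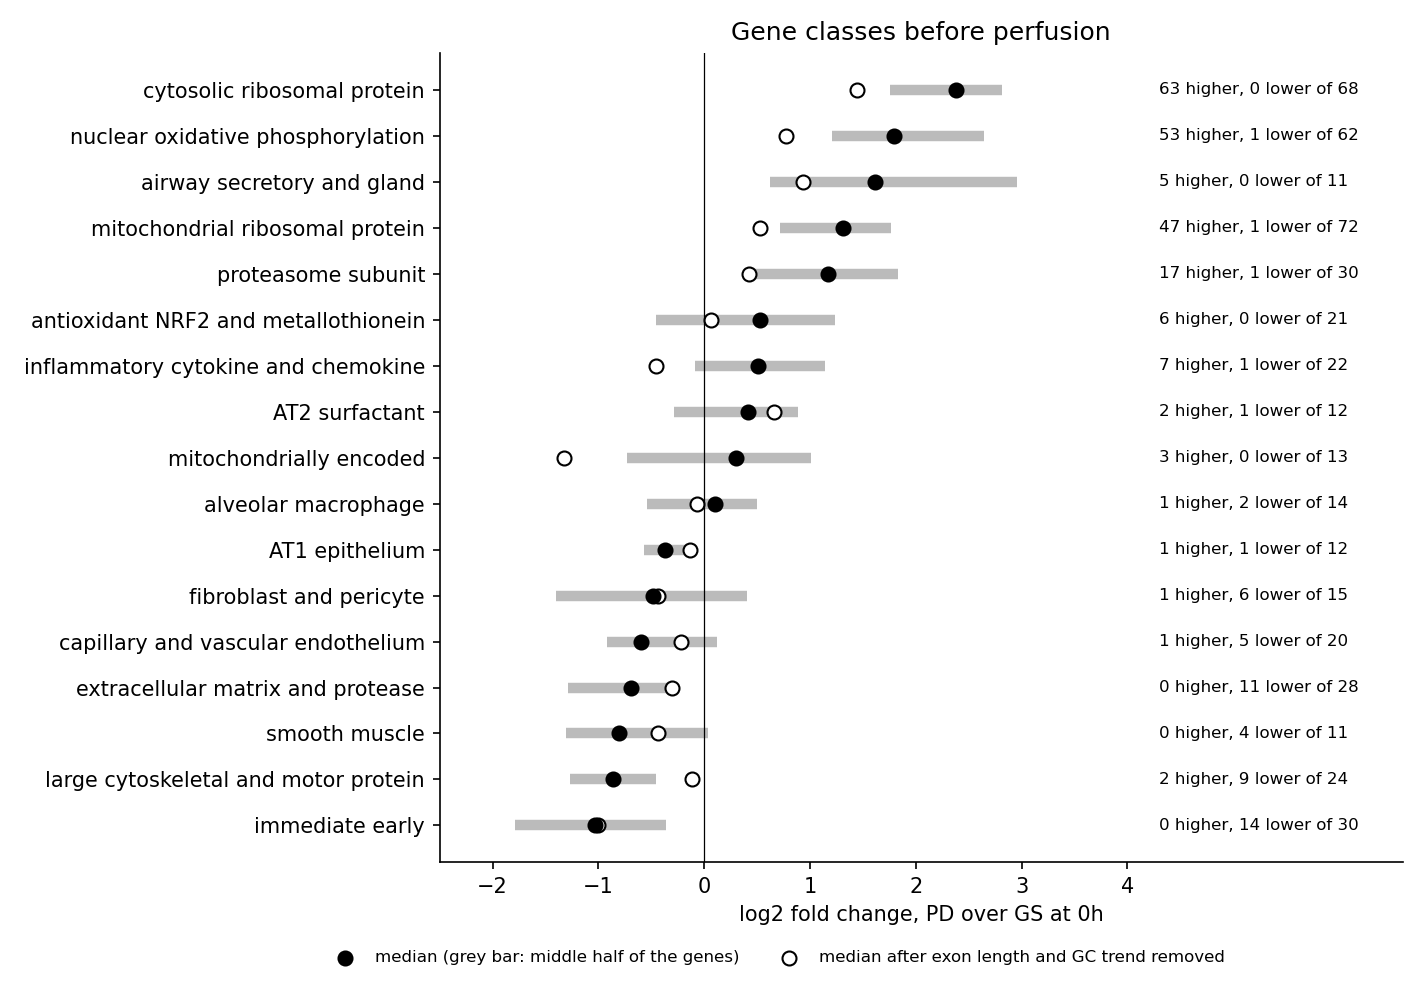
Log2 fold change of PD over GS before perfusion in 17 gene classes (filled point: median, grey bar: lower to upper quartile, open point: median after removal of the exon length and GC trend), with the numbers called on the right. Cytosolic ribosomal proteins (median 2.38) and immediate early genes (median −1.03) lie at the ends, and the open point of the immediate early class stays near its filled one.

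Immediate early genes were lower in PD or not called. Of 30 tested, 14 were called lower and 0 higher (46.7% against 13.9% of all genes), with a median of −1.03, and their summed share of counts was 0.181 to 0.441% in PD and 0.765 to 1.35% in GS. EGR1, a zinc finger factor induced by growth signals and stress, had 199, 181, 362 and 48.8 CPM in the PD pigs and 3621, 1585, 2468, 3515 and 2449 CPM in the GS pigs. No PD pig came near the lowest GS pig, and the log2 fold change was −3.79 ± 0.52 (adjusted p = 0.00018), 13.8-fold higher in GS. EGR3, its relative, had 6, 4, 2 and 2 counts in the PD libraries and 260, 76, 357, 1785 and 392 in the GS libraries (−5.49 ± 0.80, adjusted p = 0.000271), the lowest fitted value among the genes named by rule. PD pigs 4 and 5 lay under the floor of 3 counts, so it is no exact size. JUN, a subunit of the AP-1 factor whose entry is annotated as a pseudogene, had 30.2, 29.04, 7.59 and 11.5 CPM in PD and 163 to 273 in GS (−3.47 ± 0.41, adjusted p = 7.2e-05). EGR3 and JUN both overlap a gene on the opposite strand.

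The partners of JUN were less even. FOSB, chosen after its values were seen, had 92.7, 89.3, 197 and 1.81 CPM in PD and 1478, 760.1, 730.1, 837 and 91.8 CPM in GS. GS pig 77 lay inside the PD range and PD pig 5 far under the rest (−3.03 ± 0.96, adjusted p = 0.0248), and the call was lost without GS pig 9, PD pig 2 or PD pig 3 (−3.03 to −2.67) and with the length and GC trend removed (−2.55, adjusted p = 0.0586). FOS, likewise chosen, had 692, 580.1, 381 and 48.8 CPM in PD and 1102, 1251, 770.0, 776 and 241 CPM in GS and was not called (−0.96 ± 0.61, adjusted p = 0.23). The following were also chosen after their values were seen. The phosphatase gene DUSP1 (−0.63) and the matricellular factor CCN2 (0.48) were not called. NR4A2, an orphan nuclear receptor, differed by −2.57 ± 0.50, the AP-1 subunit FOSL2 by −2.64, ZFP36, which destabilises cytokine messages, by −1.84 and the growth regulator MYC by −1.03. MYC lay under the fold threshold without PD pig 4 (−0.75) and with the trend removed. After removal of the length and GC trend 11 of 29 of the class were lower and 0 higher (median −0.999), against 10.3% and 11.0% of all genes.

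SRF, the serum response factor that binds CArG boxes in front of many immediate early and smooth muscle genes, was itself lower, with 27.2, 19.3, 4.67 and 10.5 CPM in PD and 51.2, 64.8, 56.4, 103 and 64.8 CPM in GS (−2.14 ± 0.43, adjusted p = 0.0021, chosen after its values were seen). Its own promoter, as RefSeq places the gene, is shown because it carries such a box, in capitals. These are the 250 bases before the gene start in RefSeq's Sscrofa11.1 annotation, chr7:38213050-38213299, plus strand, and the box begins 28 bases before the start. The Ensembl entry that was counted starts earlier, at chr7:38213063, so most of this stretch, the box included, lies inside that entry.
SRF promoter: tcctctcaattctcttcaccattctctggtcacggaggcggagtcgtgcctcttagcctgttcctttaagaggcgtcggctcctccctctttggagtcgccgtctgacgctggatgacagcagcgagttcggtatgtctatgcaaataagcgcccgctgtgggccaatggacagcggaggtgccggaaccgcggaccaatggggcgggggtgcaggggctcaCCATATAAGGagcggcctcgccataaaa
Of the 29 immediate early genes with such a window, 3 hold a CArG box on either strand (10.3%), against 1.31% of 19547 protein-coding genes. These were SRF, DUSP5 and IER2, and of the 3 SRF was called at 0h. The windows of EGR1 and JUN held none, which says only that these letters are not in that stretch.

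**Figure D4:**
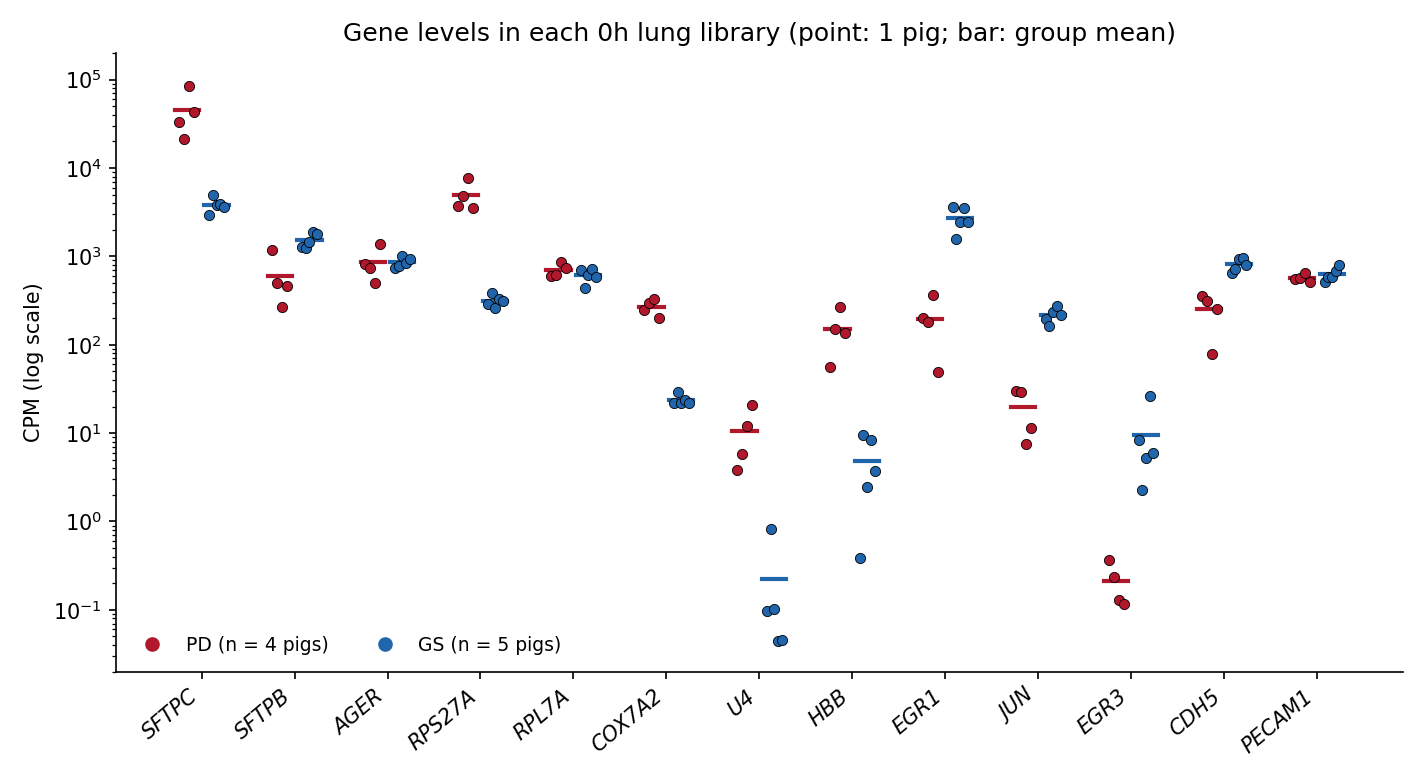
CPM (log scale) of 13 genes in each library taken before perfusion, with PD pigs in red, GS pigs in blue and group means as bars. SFTPC, RPS27A, COX7A2, U4 and HBB lie higher in every PD pig, EGR1, JUN, EGR3, SFTPB and CDH5 higher in every GS pig, and AGER, RPL7A and PECAM1 overlap.

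Of the cytokine and signalling genes that the study names for its RNA-seq, 16 could be tested before perfusion, and 3 were lower in PD (18.8%, against 13.9% of all genes) and 0 higher. With the length and GC trend removed 4 were lower and 1 higher. The study picked these genes from this series, so they are not independent evidence of a direction. REL, an NF-kB subunit of lymphoid and myeloid cells, had 27.2, 32.7, 19.1 and 20.8 CPM in PD and 133, 101.2, 77.6, 64.3 and 79.5 CPM in GS (−1.87 ± 0.26, adjusted p = 0.000209), without overlap. TNFAIP3, which encodes the NF-kB inhibitor A20, differed by −1.14 ± 0.31 (adjusted p = 0.0116). IL1B, an inflammasome product, had 1.94, 2.93, 2.08 and 0.7602 CPM in PD and 3.77, 2.81, 7.36, 4.87 and 3.42 CPM in GS, where GS pig 17 lay inside the PD range (−1.21 ± 0.43, adjusted p = 0.0396). The remaining ones were not called: IL6 (0.41), TNF (0.063), IL10 (0.78), CXCL8 (−1.30), CSF3 (0.61), CCL4 (−0.11), TEK (−0.044), IRF1 (0.19), LIF (−0.96), CIITA (−0.44), CD40 (0.35), MAP2K3 (0.50) and MAFF (−0.88), while IL24 did not pass the filter. The neutrophil chemokine CXCL8 had 8.71 to 96.1 CPM in PD and 36.2 to 179 in GS with an SE of 0.63, and for IL6 the SE was 0.52, so a difference near the call threshold could not be resolved for either. The CCL4 entry spans chr12:39478885-39557358, far longer than its 299 bases of exon, so it may take up reads of its neighbours. Once the length and GC trend was removed, CXCL8 (−2.73, adjusted p = 0.00818) and CCL4 (−1.05) were called lower and MAP2K3 higher (1.36), and TNFAIP3 was not called (−0.54). Several of these calls turned on 1 pig. IL1B was not called without GS pig 9, 44 or 55 or PD pig 2 or 5 (−1.27 to −0.94), nor TNFAIP3 without GS pig 9 or PD pig 5 (−0.97 to −0.94). IL10 was called higher without PD pig 4 (1.04, adjusted p = 0.0331), and called lower were CXCL8 without PD pig 3 (−1.95), LIF without PD pig 2 (−1.65) and MAFF without PD pig 2 or GS pig 17 (−1.17 to −1.06).

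In the wider list of 22 inflammatory cytokines and chemokines 7 were higher (31.8%, against 15.2% of all genes) and 1, IL1B, lower (4.55%, against 13.9%, median 0.51). CCL19, a chemokine that draws T cells and dendritic cells, had 71.5, 53.7, 76.3 and 36.8 CPM in PD and 16.7 to 24.5 in GS (1.61 ± 0.24, adjusted p = 0.000284, but 0.52 and not called with the length and GC trend removed). CXCL12, which retains leukocytes through CXCR4, had 88.6 to 139 and 36.7 to 79.4 CPM (1.12 ± 0.24). The monocyte chemokine CCL2, chosen after its values were seen, was called at 1.56 (adjusted p = 0.0222) but not without PD pig 4 (1.28, adjusted p = 0.061) or without PD pig 2, GS pig 17 or GS pig 55 (1.40 to 1.45). After removal of the length and GC trend, 2 of the 22 were higher and 4 lower with a median of −0.46, against 11.0% and 10.3% of all genes, and CCL2 lay at −0.029. Of 17 NF-kB subunits and feedback genes 3 were lower (17.6%, against 13.9% of all genes) and 0 higher (median −0.19), among them NFKB1 (−1.05 ± 0.19), which lay under the fold threshold without PD pig 4 (−0.93), without PD pig 5 (−0.99) and with the trend removed (−0.96). The list then had 2 lower and 1 higher.

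Surfactant transcripts were called in both directions. SFTPC had 33519, 21233, 84595 and 42504 CPM in the PD pigs and 2959, 4928, 3794, 3959 and 3665 CPM in the GS pigs, so that the lowest PD library stood well above the highest GS library (3.56 ± 0.40, adjusted p = 4.93e-05, and 2.53 with the length and GC trend removed). SFTPB, the other hydrophobic surfactant protein, went the other way, with 1179, 499, 269.9 and 464 CPM in PD and 1264, 1259, 1455, 1905 and 1802 in GS (−1.35 ± 0.38, adjusted p = 0.0132). SFTPD, a collectin of innate defence, was higher (1.36 ± 0.25), and the collectin SFTPA1 had 7356, 6843, 1512 and 6307 CPM in PD and 2265 to 3917 in GS. PD pig 4 alone kept SFTPA1 from a call, since the difference was 0.86 ± 0.39 (adjusted p = 0.0996) with it and 1.18 (adjusted p = 0.00133) without it. Of the 12 type 2 cell markers 2 were higher (16.7%, against 15.2% of all genes) and 1 lower (8.33%, against 13.9%), so the count is near that of all genes. With the trend removed 3 of the 12 were higher and 1 lower, against 11.0% and 10.3% of all genes. Their summed share was 2.65 to 6.77% of counts in PD and 0.966 to 1.32% in GS, and SFTPC alone had 3.78% and 0.441% on average.

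Of the 11 airway secretory and gland transcripts tested 5 were higher (45.5%, against 15.2% of all genes) and 0 lower (median 1.61), and 3 and 0 with the length and GC trend removed. SCGB3A1, a secretoglobin of the airways, had 388, 269.7, 2809 and 371 CPM in PD and 38.7 to 78.7 in GS (4.21 ± 0.66), and differed by 2.73 without pig 4. TFF3, a trefoil peptide of mucous cells, had 104, 171, 308 and 151 CPM in PD and 12.4, 33.9, 17.8, 11.2 and 15.9 in GS (3.33 ± 0.39, adjusted p = 6e-05). SCGB1A1, the club cell marker, was spread over 45.1 to 1076 CPM in GS and was not called (0.98 ± 0.69, adjusted p = 0.275). Of 14 ciliated cell markers 2 were higher and 1 lower (14.3% and 7.14%, against 15.2% and 13.9% of all genes) with or without the trend, with TEKT1 of the axoneme at 1.29 ± 0.22, RSPH1 of the radial spoke at −1.23 ± 0.32 and the ciliogenesis factor FOXJ1 at 0.085. Among the 12 type 1 cell markers the water channel AQP5 was higher (1.151 ± 0.27, but 0.87 without PD pig 5 and 0.38 with the trend removed) and VEGFA, a growth factor for endothelium, lower (−1.16 ± 0.34). VEGFA lay under the fold threshold without PD pig 4 (−0.87) and with the trend removed (−0.95), where 0 of the 12 were higher and 1 lower.

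Blood transcripts were present at different levels. HBB, beta globin, had 55.7, 149, 266 and 137 CPM in the PD pigs and 0.3896, 9.505, 2.47, 8.32 and 3.698 CPM in the GS pigs (4.96 ± 0.73, adjusted p = 0.000284, 31.1-fold). Its entry spans chr9:4621187-4809453, far longer than a globin gene, so it may take up reads of its neighbours. EPB42, of the red cell membrane skeleton, was called at 1.22, but not without PD pig 4 (0.85, adjusted p = 0.0908) or without PD pig 5 or GS pig 9, 17, 44 or 77 (1.13 to 1.19). The 8 matched red cell markers took 0.00616 to 0.021% of counts in PD and 0.000707 to 0.00194% in GS. All 5 platelet markers tested were called, CLEC1B (2.43) and PPBP (1.38) higher and ITGA2B (−1.59), GP9 (−1.55) and TREML1 (−3.61) lower. Of the 5, 1 had no more than the floor of 3 counts in any library of 1 group. That marker could pass the filter on low counts through the other group alone, and its fitted value is no exact size. The number called is therefore no evidence about platelets. Of all genes 15.2% were higher and 13.9% lower. With the length and GC trend removed ITGA2B (−1.15) and TREML1 (−4.18) were still called, and CLEC1B (0.96), PPBP (−0.021) and GP9 (−0.83) were not. The shares of all genes were then 11.0% higher and 10.3% lower. GP9 was also not called without PD pig 4 (−1.23). Of 9 neutrophil markers, the calgranulin S100A8 had 144, 87.2, 274 and 80.5 CPM in PD and 34.5, 10.8, 13.4, 6.40 and 11.11 in GS (3.27 ± 0.50) and S100A12 differed by 2.29 ± 0.42, while the receptor CSF3R was lower (−1.36 ± 0.39). That made 2 of the 9 higher and 1 lower (of all genes 15.2% and 13.9%), or 1 and 1 with the trend removed, where S100A12 (0.84) and CSF3R (−0.81) were not called.

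With the length and GC trend in place, the counts of other leukocyte markers called were mostly near the shares of all genes (15.2% higher and 13.9% lower). The values are given by gene. Of 14 alveolar macrophage markers 1 was higher (7.14%) and 2 lower (14.3%), and 1 and 3 with the length and GC trend removed. The fatty acid binding protein FABP4, which adipocytes also express, had 43.8, 18.4, 47.03 and 14.2 CPM in PD and 0.603 to 2.34 in GS (4.29 ± 0.47). The lysosomal CD68 (−1.89 ± 0.36) and the complement component C1QB (−1.24 ± 0.31) were lower, and the scavenger receptor MARCO was not called (−0.59, adjusted p = 0.172) unless the trend was removed (−1.07). Of 19 T and NK markers 3 were higher and 3 lower (15.8% each), but 1 was higher and 7 lower with the trend removed, against 11.0% and 10.3% of all genes. The lectin-like receptors KLRB1 (2.15 ± 0.27) and KLRK1 (2.85 ± 0.37) were higher, the co-receptor CD4 (−1.69 ± 0.32) and the T-box factor EOMES (−1.18 ± 0.31, but −0.99 without PD pig 2) lower, and CD3E, of the T cell receptor complex, lay at −0.79, under the fold threshold, though at −1.07 without PD pig 3. Once the length and GC trend was removed, KLRB1 (0.42) and EOMES (−0.88) were not called and CD3E was called lower (−1.73, adjusted p = 0.000479). Of 11 B lineage markers, JCHAIN, which joins secreted immunoglobulins, was higher (2.43 ± 0.43) and CD79A of the B cell receptor lower (−1.97 ± 0.46). The 11 had 3 higher (27.3%) and 2 lower (18.2%), or 0 and 1 with the trend removed, where JCHAIN lay at 0.97.

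Of 20 vascular endothelial markers 5 were lower in PD (25%, against 13.9% of all genes) and 1 higher (median −0.59). CDH5, the cadherin of endothelial junctions, had 359.9, 314, 78.2 and 251 CPM in PD and 640.4, 714, 945, 955 and 806 in GS (−1.70 ± 0.37, adjusted p = 0.00349), and the factor ERG 26.5, 29.8, 3.76 and 16.3 CPM against 72.0 to 109 (−2.15 ± 0.45). CLDN5, a tight junction gene, was higher (1.67 ± 0.42) with overlapping groups. Of 11 smooth muscle markers 4 were lower (36.4%) and 0 higher (median −0.81), with the SRF coactivator MYOCD at −2.81 ± 0.47 and SMTN at −1.30 ± 0.30. ACTA2, smooth muscle actin, was at 0.23, with 97.8 CPM in PD pig 4 and 741 to 897 in the other PD pigs. Of 15 fibroblast and pericyte markers 6 were lower (40%), the growth factor receptors PDGFRA (−1.57 ± 0.27) and PDGFRB (−1.74 ± 0.35) among them, and 1, the proteoglycan DCN, was higher (1.30 ± 0.28). After removal of the length and GC trend 3 of 18 endothelial, 1 of 11 smooth muscle and 3 of 15 fibroblast markers were lower, against 1500 of 14525 genes, and 0, 0 and 1 were higher. CLDN5 (0.79), SMTN (−0.81), PDGFRB (−0.94) and DCN (0.13) were then not called.

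Of 28 matrix and protease genes tested 11 were lower in PD (39.3%, against 13.9% of all genes) and 0 higher (median −0.69). COL5A1, which sets the width of collagen fibrils, had 133, 77.3, 80.6 and 139.6 CPM in PD and 291 to 321 in GS (−1.499 ± 0.23), LAMB2 of basement membranes differed by −1.30 ± 0.21, and ELN, elastin, by −1.63 ± 0.50 (chosen after its values were seen). After the length and GC trend was removed 1 was higher and 1 lower (median −0.31), and COL5A1 (−0.79), LAMB2 (−0.61) and ELN (−1.19, adjusted p = 0.121) were not called. Of 24 genes in a list of large cytoskeletal and other giant proteins 9 were lower (37.5%) and 2 higher (8.33%, median −0.86). Those named by rule are not all of the cytoskeleton: KMT2C is a histone methyltransferase (−2.24 ± 0.31), UBR4 a ubiquitin ligase (−1.20 ± 0.17), AHNAK a scaffold protein at 0.974 to 1.63 CPM in GS (1.45 ± 0.39), and VPS13A a lipid transfer protein (1.39). Without the trend 3 were higher and 2 lower (median −0.12), and UBR4 lay at −0.25.

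Among genes with a symbol, without overlap and with 5 CPM or more in GS, the 6 lowest in PD relative to GS were EGR3, SNORA51, ARHGAP20, PHLDA1, MN1 and KCTD12. ARHGAP20, a GTPase activating protein, had 0.968, 1.698, 0.324 and 0.468 CPM in PD and 17.4, 32.3, 12.4, 5.46 and 12.1 in GS (−4.19 ± 0.61, adjusted p = 0.000268). PHLDA1, a pleckstrin homology-like protein, differed by −4.06 ± 0.72, the transcriptional regulator MN1 by −3.98 ± 0.54 and KCTD12, an auxiliary subunit of GABA-B receptors, by −3.82 ± 0.46. MN1 had 2 counts in PD pig 3, under the floor, and PHLDA1 had 3 in PD pig 4, at the floor. Neither fitted value is an exact size. With the length and GC trend removed, ARHGAP20, PHLDA1, MN1 and KCTD12 differed by −4.02, −3.92, −3.03 and −4.23. SRRM1, a splicing coactivator of nuclear speckles, had 38.2, 39.6, 19.3 and 23.7 CPM in PD and 197, 112, 202, 228 and 228 in GS (−2.68 ± 0.30, adjusted p = 4.84e-05).

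The 0h differences were set beside those at 6h and 12h, when the treatments had been applied to the same 9 pigs. Of the 4654 genes called at 0h and also tested at 6h, 4554 had the same sign there (97.9%), against 81.2% of all genes tested at both times. At 12h it was 4574 of 4648 (98.4%), against 83.6%. The same pigs enter at every time, so these are not independent comparisons. Among genes called higher at 0h the median log2 fold change was 1.56, and at 6h and 12h their medians were 1.21 and 1.49. Ribosomal proteins had medians of 2.38, 1.80 and 2.32 at 0h, 6h and 12h, and nuclear respiratory chain genes 1.79, 1.42 and 1.86.

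Inflammatory and immediate early genes had other sequences of values. The immediate early median was −1.03, −0.011 and −1.06 at 0h, 6h and 12h, and EGR1 had −3.79, 0.33 and −3.16. Cytokines and chemokines had medians of 0.51, 1.82 and 1.37, with IL1B at −1.21, 3.36 and 1.12 and the chemokine CCL4 at −0.11, 3.48 and 2.10. Interferon-stimulated genes had medians of 0.23, 1.09 and 1.16. SFTPC had 3.56, 2.57 and 2.93, the Y RNA ENSSSCG00000020402 had 6.51, 5.52 and 5.65, and HBB had 4.96, 5.05 and 6.003. Whether a difference at 6h or 12h departed from that at 0h was not tested here.

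**Figure D5:**
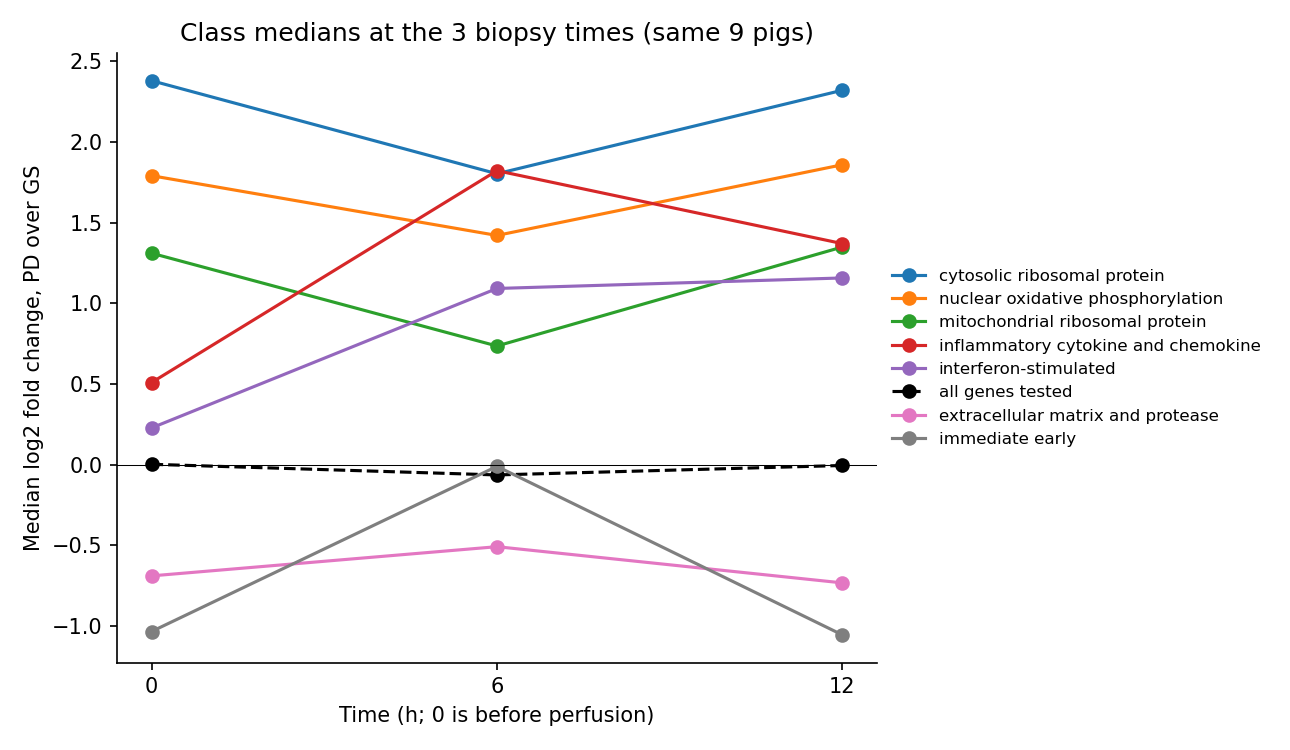
Median log2 fold change of PD over GS in 7 gene classes and over all genes, at 0h (before perfusion), 6h and 12h, in the same 9 pigs. The cytosolic ribosome (2.38, 1.80 and 2.32) lies highest at 0h and 12h, all genes lie near 0, and the immediate early class lies at −1.03, −0.011 and −1.06.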

How the data were processed

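Lung RNA was sequenced from poly(A)-selected, stranded TruSeq libraries on a NextSeq 500. The authors deposited whole-number counts per Ensembl gene, made per their notes with bcl2fastq 2.2.18.12, cutadapt 1.15, TopHat2 2.0.14 and featureCounts of Subread 1.6.0 on Sscrofa11.1. Neither the strand setting nor the handling of reads with several places is given in the sources used here, so overlapping genes, copies and pseudogenes carry an unknown error. The table has 31908 genes, of which 18074 could be given a symbol.

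The 9 columns of 0h were fitted with edgeR 4.0.16 in R 4.3.3 (limma 3.58.1), with filterByExpr, TMM scaling, the quasi-likelihood F test, Benjamini-Hochberg adjustment and no covariate. Called genes pass an adjusted p of 0.05 and differ 2-fold or more. CPM use the TMM-scaled totals, whereas RPKM use the raw totals. Library values were compared by exact permutation of pigs (SciPy 1.17.1, pandas 2.3.3, Python 3.11.15). Exon length and GC content were available for 88.2% of genes tested, from RefSeq's annotation of the same build or, for genes of 1 exon, their own span. Floors cover counting error only. No library duplicated another, since the smallest chi-square over degrees of freedom for any pair was 43.7. The fits were tested on simulated data. With a length trend and no changed gene, the main fit called 2165 of 16228 genes falsely, and the fit with the trend removed 0 of 14398. The simulated trend was a straight line in log2 length of a set slope, a form that the removal can fit, without a GC part. These counts are therefore not error rates for the lung libraries. Without such a trend the main fit made 13 false calls among 16330 genes. It then recovered 61 of 100 genes changed by 1.5 on the log2 scale and 96 of 100 changed by 3.

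The 0h libraries and the 46 gene lists (897 of 986 entries matched a gene by symbol) were chosen with earlier results of these data known, and no list was tested as a set. Genes were named by a rule: the 6 with a symbol that differed most each way without overlap and with 5 CPM or more in the higher group, up to 2 called members of a list each way by adjusted p, the 12 most abundant per exon length, defining cell type markers and the study's RNA-seq genes. Others are said to be chosen after their values were seen. Alternatives were DESeq2 1.42.0 (without the low-count filter), its size factors, no low-count filter, no fold threshold, all 27 libraries fitted together, thinning, removal of the length and GC trend, each pig left out, and, added after the data were seen, the 2 GS pigs nearest in depth.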

Additional observations from a re-analysis of the deposited data

Results flagged for a closer look

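In 319 groups of 4 or 5 libraries, a highest or lowest value far from the rest was found in 30 (9.4%), and chance gives about 1 in 20. Of these, 12 were PD pig 4, 4 other PD pigs and 14 GS pigs.

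PD pig 4 had 43.9% of its counts in its 100 most abundant genes. Its levels stood above the other PD pigs for SNORD81 (15.96 CPM), RPL37 (7806), TPT1 (9943), CSF3 (16.9) and SCGB3A1 (2809), and below them for KCTD12 (0.389), SFTPA1 (1512), VEGFA (43.3), ACTA2 (97.8), C1QB (293) and THBD (5.12). Elsewhere in PD, pig 5 was low in DUSP1 (204 CPM) and high in NR1D1 (29.0), pig 3 low in MAP2K3 (39.7) and pig 2 low in KLRB1 (17.5).

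GS pig 17, the shallowest GS library, was high in U4 (0.815 CPM), TMSB4X (2333), RPL38 (155), COX7A2 (29.2) and the share of nuclear respiratory chain genes (0.357% of counts), and low in ND4 (1524), RPL37 (285), ITGA2B (94.5) and SRRM1 (112). Among the GS pigs, pig 9 had the fewest detected genes after thinning to the smallest total (20826) and the lowest share of type 2 cell markers (0.966%). GS pig 77 was low in FOSB (91.8 CPM), GS pig 44 high in C1QB (2085) and GS pig 55 high in EPB42 (2.52).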

How the results depend on the processing

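No paired analysis was possible because each pig belongs to 1 group and gave 1 library at 0h. The counts called (4792, 2504 higher and 2288 lower) moved by over 1.5 times under 2 settings. With the exon length and GC trend removed they were 3097, 1597 and 1500, and 2231 of the 3097 were called with the trend in place. That setting also tested fewer genes (14525 of 16477, those with exon length and GC content), so 2 choices changed at once. Against the 2 GS pigs nearest in depth, chosen after seeing the data, they were 2273, 1147 and 1126 on fewer samples, and 2123 were among the original calls. The genes with the same direction at 6h and 12h, 4554 and 4574, became 2937 and 2962 with the trend removed (97.2% and 97.9% of those tested) and 2203 and 2215 with the nearest pigs (97.6% and 98.9%). The count called was 5699 by DESeq2, which was run without the low-count filter on 26956 genes, 4794 with its size factors, 5235 by edgeR with no filter, 6687 with no fold threshold, 4613 with all 27 libraries, 4614 after thinning and 4320 to 4850 with 1 pig left out. The median of those 26956 genes was 0.13 by DESeq2 and −0.068 by edgeR. The share of calls that were higher lay between 49.6% and 54%. The difference in detected genes after thinning to the smallest total, which matched the totals only, lay between −880 and −442 with 1 pig left out. It passed 0.05 without GS pig 9. At 5 counts or more it was −528 (exact permutation p = 0.111).

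Of the genes named, 111 were called. DESeq2 kept 109 of these calls, its size factors and thinning all 111, leaving out 1 pig 104 to 110, and the nearest GS pigs 71. With the trend removed 74 of 109 were kept and 31 lost, and 5 genes of this tally changed sign with a call on either side: ATP6 (−1.55), COX2 (−0.059), COX3 (−0.24), TPT1 (−0.17) and CCL2 (−0.029). The platelet marker PPBP, which this tally leaves out, also changed sign, as given above. The cause was not tested. Depth limits PD most: a gene under 0.175 CPM there was at the floor, while GS reached 0.044.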

Other observations

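Stress, metabolic and clock genes are given here by list. Of all genes tested 15.2% were higher in PD and 13.9% lower, and a list with shares near these does not stand apart. With the length and GC trend removed the shares of all genes were 11.0% and 10.3%. Of 18 clock genes 4 were lower and 1 higher in PD (22.2% and 5.56%, median −0.47). NR1D1, the repressor REV-ERB alpha, had 12.7, 13.99, 13.3 and 29.0 CPM in PD and 121, 62.9, 176, 172 and 88.2 CPM in GS (−2.85 ± 0.38, adjusted p = 0.000148), and PER3 differed by −1.76 ± 0.24. These genes cycle through the day, and the hour of sampling was not given in the sources used here. Of 15 glucocorticoid response genes 3 were lower and 1 higher (20% and 6.67%), with ZBTB16 at −2.68 ± 0.48 and TSC22D3, which encodes GILZ, at 1.46 ± 0.39. Of 21 antioxidant genes 6 were higher (28.6%) and 0 lower, among them thioredoxin TXN (372 to 719 CPM in PD, 48.7 to 81.4 in GS, 3.02 ± 0.26) and SOD1 (1.83 ± 0.20, but 0.60 and not called with the length and GC trend removed). In that setting 4 of 20 antioxidant genes were higher and 1 lower, and 1 was higher and 2 lower of both the clock and the glucocorticoid genes.

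In cholesterol synthesis 5 of 20 genes were higher (25%) and 2 lower, and 5 and 1 of 19 with the trend removed. IDI1, an isoprenoid isomerase, was higher (146, 123, 206 and 184 CPM in PD, 27.02 to 42.7 in GS, 2.19 ± 0.21, and 2.26 with the length and GC trend removed) and SREBF1, a regulator of lipid synthesis, lower (−2.14 ± 0.43). Among heat shock genes the mitochondrial chaperone HSPE1 was higher (2.48 ± 0.29) and the co-chaperone BAG3 lower (−1.87 ± 0.50, with 376 CPM in GS pig 9 and 57.3 to 119 in the other GS pigs). MANF of the endoplasmic reticulum was higher (2.07 ± 0.24). In coagulation and complement, thrombomodulin THBD was lower (−2.52 ± 0.44) and C5 higher (972 to 1482 CPM in PD, 233 to 571 in GS, 1.39 ± 0.30). Of 24 hypoxia and glycolysis genes 2 were higher and 4 lower (8.33% and 16.7%), with PGK1 at 1.20 ± 0.21 and PKM at −1.54 ± 0.35. SLA-DMB (1.28 ± 0.21) and SLA-DQB1 (1.31 ± 0.24) were the 2 of 9 class II genes called. Of 22 interferon-stimulated genes 4 were higher and 1 lower, with ISG15 at 1.62 ± 0.40 and MX1 at −1.40 (adjusted p = 0.032, and 0.0707 without PD pig 4, with the call also lost without PD pig 3 or 5 or GS pig 9, at −1.24 to −0.89). In BMP signalling SMAD9 was lower (−1.93 ± 0.37) and ID1 higher (1.19 ± 0.32, but 0.93 without PD pig 2). With the trend removed the calls were lost for HSPE1 (0.67), MANF (0.85), PGK1 (0.44), PKM (−0.83), SLA-DMB (0.58), SLA-DQB1 (0.52), ISG15 (0.53) and ID1 (0.42). Then 1 hypoxia gene was higher and 2 lower, 0 and 0 of the class II genes, 0 and 1 of the interferon-stimulated genes and 1 and 5 of the BMP genes.

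The remaining lists gave these counts, higher and lower in PD: nucleolus and RNA metabolism 4 and 2 of 27, splicing speckle 2 and 3 of 16, replication-dependent histones 3 and 1 of 9, cell cycle 4 and 1 of 28, endoplasmic reticulum stress 5 and 1 of 20, heat shock 2 and 1 of 19, complement and coagulation 4 and 2 of 24, BMP signalling 2 and 3 of 19, lymphatic endothelium 0 and 3 of 7, monocytes 1 and 2 of 7, mast cells 0 and 1 of 4, cartilage 0 and 0 of 6, adipocytes 1 and 0 of 6, and heart and skeletal muscle 0 and 1 of 5. The same lists in the same order, after the trend was removed, had 2 and 4 of 27, 1 and 2 of 16, 1 and 1 of 7, 3 and 1 of 27, 2 and 1 of 20, 0 and 1 of 19, 2 and 3 of 24, 1 and 5 of 19, 0 and 2 of 7, 1 and 1 of 7, 0 and 1 of 4, 1 and 0 of 6, 1 and 1 of 6, and 0 and 0 of 5. Protein-coding genes that overlap a gene on the opposite strand had 723 higher and 677 lower of 4741, and those that do not 1498 and 1360 of 9885.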
